A study of Mus musculus with 7 samples.

Results

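BMFA3-sorted PanMeso cells are mouse mesothelial cells of the pancreas, recovered from tumours that had grown together with the pancreatic cancer cells BMFA3. They are described here against the parental cells from which they came. The comparison takes every library labelled as sorted from BMFA3 tumours (n = 2) and every parental library (n = 3), which are 5 of the 7 libraries of the series. The 2 libraries of cells sorted from tumours of a second cancer line, CT1BA5, enter the same model, so that a difference between BMFA3-sorted and CT1BA5-sorted cells could be tested directly.

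All groups share the same starting cells, a pancreas-derived mesothelial line that expresses eGFP. BMFA3-sorted and CT1BA5-sorted cells had been injected into the pancreas together with the named cancer cells, and eGFP-positive cells were then taken from the tumours by flow sorting. Parental cells were only cultured, in a serum medium with 400 nM hydrocortisone, 3.3 nM mouse epidermal growth factor and 870 nM insulin. The line was kept at 33 °C and moved to 37 °C for 3 days before use. The labels record this medium and these temperatures for the sorted groups too. Growth in a tumour and away from this medium, injection, tissue handling and sorting therefore all separate the sorted groups from the parental group. Their parts in any difference cannot be told apart. Strain, sex and age of the hosts, the number of tumours behind each library and the interval from injection to sorting were not given in the sources used here. The p-values thus measure only the spread between these libraries, which may be technical.

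Mesothelial cells form the thin lining of the peritoneum, pleura and pericardium. They carry the transcription factor Wt1 and the surface protein mesothelin, express simple keratins, and can turn into fibroblast-like cells in injury and cancer. The series concerns such mesothelium-derived cancer-associated fibroblasts. Acute phase proteins are secreted in inflammation, mostly by the liver but also by stromal cells, under the control of IL-6 and IL-1. IL-1 family cytokines act through receptors that recruit MYD88 and IRAK kinases and so activate NF-kB, and chemokines attract leukocytes through G-protein-coupled receptors.

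Library totals were 14792189 to 16501058 counts in BMFA3-sorted, 14327365 to 16981596 in CT1BA5-sorted and 10096839 to 19210598 in parental cells. Levels are CPM, counts scaled to a common library size with TMM factors. They compare a gene between libraries but, not being set per length, do not compare genes with each other. Libraries of the same group correlated at 0.989 to 0.993 across genes on the log2 CPM scale, and BMFA3-sorted with parental libraries at 0.919 to 0.923. Reads linked to ribosomal RNA genes made up 2.38% and 0.144% of counts in the BMFA3-sorted libraries, 1.08% and 0.110% in the CT1BA5-sorted and 0.0983% to 1.74% in the parental libraries, so they varied within groups as much as between them.

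Across 13784 tested genes, 4020 (29.2%) were higher and 4115 (29.9%) lower in BMFA3-sorted than in parental cells at an adjusted p of 0.05 (quasi-likelihood test of edgeR, adjusted by Benjamini and Hochberg, which gives every adjusted p below). A change of more than 2-fold passed a test against that size for 785 genes upward (5.70%) and 921 downward (6.68%). As so many genes were called in each direction, a call by itself sets few genes apart, and the counts for gene groups below are to be read beside these shares. Against CT1BA5-sorted cells, 3487 genes (25.3%) were higher and 3521 (25.5%) lower in BMFA3-sorted cells. Scaled by library size alone, the same test gave 4740 higher and 2371 lower genes, as the median log2 fold change of all genes in that comparison moved to 0.163, against 0.0061 with TMM scaling. BMFA3-sorted libraries also differed from both other groups in bulk composition. Ribosomal protein genes took 6.67% to 6.74% of their counts, against 8.30% to 9.57% in CT1BA5-sorted and 4.25% to 4.90% in parental libraries.

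The genes of largest rise over parental cells included inflammatory genes, some of them with secreted products. Nos2, the inducible nitric oxide synthase, stood at 26.5 and 27.8 CPM in BMFA3-sorted and 88.2 and 85.9 CPM in CT1BA5-sorted libraries, and it had no counts in any parental library. It was at least 407-fold higher in BMFA3-sorted cells, taken against a floor of 3 counts over the parental group. Il6, the cytokine that drives STAT3 and the acute phase response, had 87.2 and 90.3 CPM in BMFA3-sorted, 72.1 and 82.3 CPM in CT1BA5-sorted and 1.84, 0.582 and 0.981 CPM in parental libraries. All sorted libraries lay far above all parental ones (log2FC 6.36 ± 0.16, adjusted p 3.7e-17), while the sorted groups differed by 0.20 ± 0.10 (adjusted p 0.11), short of the threshold. That last test passed with library size alone (log2FC 0.36) and without CT1BA5 replicate 2 (log2FC 0.30). Spp1, the secreted matrix protein osteopontin, had 2659 and 2676 CPM in BMFA3-sorted libraries and 3181 and 3534 CPM in CT1BA5-sorted ones, against 17.7, 13.7 and 11.1 CPM in parental libraries. Its rise over parental cells was 191-fold. Has2, which makes hyaluronan, averaged 296 ± 2.33 CPM in BMFA3-sorted, 878 ± 13.9 CPM in CT1BA5-sorted and 6.03 ± 1.01 CPM in parental cells (SD), with reads that cannot be told from those of its antisense partner Has2os. Of the 12 genes with the largest rise by the naming rule, others were Kif21b, Cxcl5, Ptgs2os2, Saa3, Cxcl1, Fam78b and Sorcs2. Their log2 fold changes lay between 5.56 (Sorcs2) and 7.60 (Cxcl5, with few parental counts).

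The genes of largest fall were low in both sorted groups. Itga10, the alpha subunit of a collagen-binding integrin, had 0.975 and 1.33 CPM in BMFA3-sorted and 0.194 and 0.701 CPM in CT1BA5-sorted libraries, against 71.97, 64.2 and 68.1 CPM in parental libraries. Its log2FC over parental cells was -5.88 ± 0.18. Igfbp6, a mesothelial binder of insulin-like growth factor II, had 29.1 and 29.8 CPM in BMFA3-sorted and 15.4 and 15.9 CPM in CT1BA5-sorted libraries, against 708, 774 and 755 CPM in parental libraries. It was 25.3-fold lower in BMFA3-sorted than in parental cells. Cldn1, a tight junction claudin, averaged 1.14 ± 0.831 CPM in BMFA3-sorted, 0.168 ± 0.128 CPM in CT1BA5-sorted and 74.5 ± 5.48 CPM in parental cells (SD). Others of the 12 lowest were Ms4a4b, Sult1a1, Strip2, Sez6l, Rapgef5, Aldh1a7, Fam180a and Ifit1bl1, with log2 fold changes from -6.97 (Ms4a4b) to -4.65 (Ifit1bl1). Ms4a4b has near-identical relatives and Sult1a1 overlaps Sgf29, so both are uncertain to that extent.

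The 12 leading genes that were higher than both in parental and in CT1BA5-sorted cells, ranked by the smaller of the 2 changes, were Cxcl5, Saa3, Ptger3, C1qtnf7, Cxcl1, Lcn2, Ptx3, Chl1, Il33, Gdpd2, Rassf9 and Steap4, in that order. The rule required a call against both groups and no overlap of libraries, so that separation is no further result. They include the chemokines Cxcl5 and Cxcl1, the acute phase genes Saa3, Lcn2 and Ptx3 and the cytokine Il33. Saa3, serum amyloid A3 (ENSMUSG00000040026, chromosome 7, 46711998 to 46715700, minus strand, GRCm38), had 112 and 108 CPM in BMFA3-sorted, 0.582 and 0.701 CPM in CT1BA5-sorted and 2.30, 1.53 and 1.67 CPM in parental libraries. In BMFA3-sorted cells it was 61.3-fold above parental and 170.4-fold above CT1BA5-sorted cells. Lcn2, lipocalin 2, which binds bacterial iron carriers (ENSMUSG00000026822, chromosome 2, 32384633 to 32388252, minus strand), had 185 and 192 CPM in BMFA3-sorted, 9.51 and 12.4 CPM in CT1BA5-sorted and 7.55, 7.28 and 7.36 CPM in parental libraries. Ptx3, a long pentraxin that binds complement C1q (ENSMUSG00000027832, chromosome 3, 66219910 to 66225805, plus strand), had 38.3 and 39.8 CPM in BMFA3-sorted, 2.39 and 2.96 CPM in CT1BA5-sorted and 0.644, 0.582 and 1.23 CPM in parental libraries. Over parental cells, the log2FC was 4.67 ± 0.092 for Lcn2 and 5.46 ± 0.20 for Ptx3. Steap4, a metalloreductase for iron and copper that inflammation induces (ENSMUSG00000012428, chromosome 5, 7960457 to 7982213, plus strand), had 247 and 242 CPM in BMFA3-sorted, 14.04 and 12.8 CPM in CT1BA5-sorted and 38.7, 40.3 and 38.7 CPM in parental libraries. It was higher in BMFA3-sorted cells than in both other groups (log2FC 2.64 ± 0.067 over parental, 4.19 ± 0.087 over CT1BA5-sorted) and lower in CT1BA5-sorted than in parental cells, a comparison in which 35.5% of tested genes were higher and 35.1% lower.

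The other members of those 12 are not known mainly as inflammatory genes. Chl1, a neural cell adhesion molecule, had 14.99 and 15.2 CPM in BMFA3-sorted, 0.129 and 0.0779 CPM in CT1BA5-sorted and 1.01, 0.801 and 1.32 CPM in parental libraries. Its few CT1BA5 counts gave a ratio of 143 (95% exact interval 48.5 to 693) over that group. Ptger3, the EP3 receptor for prostaglandin E2, had 15.3 and 14.8 CPM in BMFA3-sorted, 0.194 and 0.0779 CPM in CT1BA5-sorted and 0.368, 0.437 and 0.54 CPM in parental libraries. C1qtnf7, a secreted protein with a C1q-like domain, had 22.5 and 21.7 CPM in BMFA3-sorted, 1.16 and 0.701 CPM in CT1BA5-sorted and 0.92, 0.873 and 0.883 CPM in parental libraries. For each of these genes no library of another group overlapped the BMFA3-sorted ones, as the rule for choosing them required. Gdpd2 and Rassf9 rose by 7.86-fold and 7.04-fold over parental cells.

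Below both other groups, the 12 leading genes were Fibin, Col8a1, Krt14, Rspo1, Plxna4, Dapk2, Ifi27l2b, Wnt9a, Kctd12, Hip1r, Ano1 and Slc4a11. Col8a1, a short-chain collagen, had 24.9 and 24.5 CPM in BMFA3-sorted, 94.5 and 80.2 CPM in CT1BA5-sorted and 189.9, 174 and 187 CPM in parental libraries. Wnt9a, a Wnt ligand, had 21.3 and 18.4 CPM in BMFA3-sorted, 92.6 and 98.5 CPM in CT1BA5-sorted and 68.2, 78.5 and 78.7 CPM in parental libraries. Rspo1, which amplifies Wnt signalling, had 4.39 and 4.57 CPM in BMFA3-sorted, 11.2 and 11.1 CPM in CT1BA5-sorted and 21.8, 24.3 and 27.3 CPM in parental libraries. In all 3 the BMFA3-sorted libraries were the lowest with no overlap, which the rule for choosing them required. The log2FC over parental cells was -2.89 ± 0.089, -1.93 ± 0.092 and -2.46 ± 0.15.

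**Figure D1:**
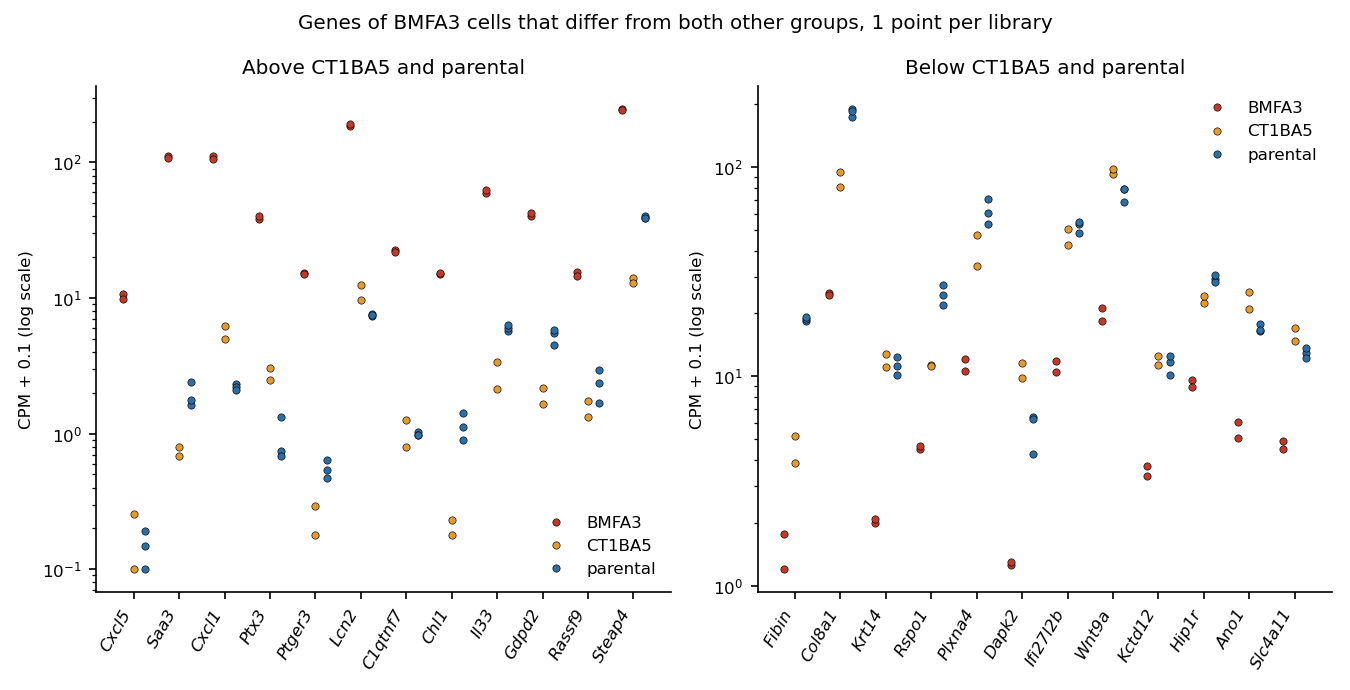
CPM of each library (1 point per library, a small constant added, log axis) for the 12 genes above and the 12 genes below both other groups, with BMFA3-sorted, CT1BA5-sorted and parental libraries side by side. The BMFA3-sorted points lie apart from all others in each gene, which the rule for choosing these genes required, and Saa3 at 112 and 108 CPM and Steap4 at 247 and 242 CPM are among the highest.

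The promoters of genes above both groups were searched because these genes were chosen for moving together. Windows of 250 bases before and 50 after the start (RefSeq, GRCm38.p6) were found for 10 of the 12. As Gdpd2 and Il33 had 2 windows each, only the first windows of the 10 genes were taken. They were searched on both strands for the NF-kB consensus of 10 letters, for the C/EBP-type TTGCNNAA, for the AP-1-type TGANTCA and for the STAT-type TTCNNNGAA. The 10 windows held the NF-kB consensus in 3 genes, the C/EBP-type letters in 5, the STAT-type in 2 and the AP-1-type in none. Over all 32851 promoter windows of the table, these letters were present in 8.46% (NF-kB), 10.8% (C/EBP), 8.3% (STAT) and 7.81% (AP-1). The 9 windows found for the 12 genes below both groups held the NF-kB consensus in 5 genes and the other 3 patterns in none. A match is a run of letters and no evidence of binding. The searched windows of C1qtnf7, Chl1, Il33 and Ptger3 held neither the NF-kB consensus nor C/EBP-type letters, and that of Gdpd2 held C/EBP-type letters. The second windows of Il33 and Gdpd2 were not searched. None of these windows is shown. Selected windows with a match follow, read 5′ to 3′ on the strand of the gene, with NF-kB and C/EBP-type matches in capitals. They are Saa3 (chr7:46715627-46715926, minus strand), Lcn2 (chr2:32387690-32387989, minus), Ptx3 (chr3:66219637-66219936, plus), Cxcl1 (chr5:90890995-90891294, plus) and Steap4 (chr5:7960222-7960521, plus).
Saa3: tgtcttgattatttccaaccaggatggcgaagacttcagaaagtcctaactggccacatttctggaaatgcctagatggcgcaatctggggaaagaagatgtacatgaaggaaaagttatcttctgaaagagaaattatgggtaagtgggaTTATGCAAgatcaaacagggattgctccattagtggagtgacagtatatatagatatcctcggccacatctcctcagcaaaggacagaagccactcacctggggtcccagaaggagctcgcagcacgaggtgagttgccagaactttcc
Lcn2: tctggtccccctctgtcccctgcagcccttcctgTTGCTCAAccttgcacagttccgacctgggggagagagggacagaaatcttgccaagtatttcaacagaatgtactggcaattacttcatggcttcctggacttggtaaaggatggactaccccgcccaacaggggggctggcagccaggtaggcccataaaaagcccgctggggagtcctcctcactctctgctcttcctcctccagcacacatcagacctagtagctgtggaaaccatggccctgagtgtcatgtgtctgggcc
Ptx3: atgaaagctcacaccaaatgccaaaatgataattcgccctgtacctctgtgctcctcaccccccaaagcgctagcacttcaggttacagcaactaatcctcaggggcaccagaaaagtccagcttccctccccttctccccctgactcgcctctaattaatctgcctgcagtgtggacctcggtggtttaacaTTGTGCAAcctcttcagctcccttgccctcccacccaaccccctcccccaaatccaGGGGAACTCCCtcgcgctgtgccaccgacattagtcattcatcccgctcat
Cxcl1: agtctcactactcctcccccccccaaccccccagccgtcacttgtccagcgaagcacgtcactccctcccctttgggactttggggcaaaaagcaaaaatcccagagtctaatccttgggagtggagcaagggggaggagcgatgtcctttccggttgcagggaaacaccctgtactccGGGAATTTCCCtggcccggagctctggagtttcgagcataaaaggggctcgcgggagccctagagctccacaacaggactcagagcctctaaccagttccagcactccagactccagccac
Steap4: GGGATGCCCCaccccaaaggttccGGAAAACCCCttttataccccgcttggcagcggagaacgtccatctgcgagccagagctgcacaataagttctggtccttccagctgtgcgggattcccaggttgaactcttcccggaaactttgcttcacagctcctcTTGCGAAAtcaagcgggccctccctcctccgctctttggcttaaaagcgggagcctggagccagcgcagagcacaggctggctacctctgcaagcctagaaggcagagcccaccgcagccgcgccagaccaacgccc
In Saa3 the C/EBP-type letters began at base -99 from the start and in Lcn2 at base -216. In Cxcl1 and in Ptx3 the capitals of the NF-kB consensus hold 2 matches that overlap, shifted by 1 base, which in Cxcl1 began at bases -71 and -70. Steap4 held the NF-kB consensus at bases -250 and -226 and C/EBP-type letters at -87. Ptx3 also held C/EBP-type letters, at base -57.

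Most tested acute phase genes were higher. Of 38 genes of the list in the table, 15 had enough counts to be tested. Of these, 10 were higher and 2 lower in BMFA3-sorted than in parental cells, with a median log2FC of 1.73 against 0.0047 over all tested genes. Against CT1BA5-sorted cells 9 were higher and 1 lower. Their summed level was 1163 to 1164 CPM in BMFA3-sorted, 96.4 to 105 CPM in CT1BA5-sorted and 413 to 479 CPM in parental libraries, so the order of the groups was the same in every library. Beyond Saa3, Lcn2, Ptx3 and Steap4, C3, the central complement component, had 447 and 455 CPM in BMFA3-sorted, 58.5 and 51.8 CPM in CT1BA5-sorted and 231, 277 and 303 CPM in parental libraries. It was 1.67-fold higher than in parental and 8.16-fold higher than in CT1BA5-sorted cells. Cp, the copper-carrying ferroxidase ceruloplasmin, averaged 102 ± 2.99 CPM in BMFA3-sorted, 1.43 ± 1.36 CPM in CT1BA5-sorted and 74.98 ± 2.68 CPM in parental cells (SD). The BMFA3-sorted libraries exceeded the parental ones by 0.45 ± 0.11 on the log2 scale (adjusted p 0.0012), a call lost with DESeq2 (adjusted p 0.5), whereas the CT1BA5-sorted libraries were near 0. Cp overlaps Hps3, and counting by strand is not stated. Haptoglobin, Hp, which clears free haemoglobin, had 4.20 and 3.18 CPM in BMFA3-sorted, 0.0647 and 0.234 CPM in CT1BA5-sorted and 0.092, 0.364 and 0.245 CPM in parental libraries.

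The serine protease inhibitors of the Serpina3 cluster, relatives of antichymotrypsin whose sequences are near-identical, did not move as one. Serpina3n had 13.7 and 14.05 CPM in BMFA3-sorted, 1.88 and 1.40 CPM in CT1BA5-sorted and 47.9, 40.3 and 43.1 CPM in parental libraries, and thus lay between the other groups (log2FC -1.65 ± 0.11 over parental, 3.06 ± 0.20 over CT1BA5-sorted). Serpina3m had no count in BMFA3-sorted libraries and 3.96, 4.003 and 5.89 CPM in parental ones, at least 50.9-fold lower against the floor of 3 counts. Serpina3g and Serpina3i were higher than in parental cells, by 3.64-fold and 11.3-fold. Fgl1 was higher as well (log2FC 1.73 ± 0.58, adjusted p 0.015), but without BMFA3 replicate 1 its log2FC was 0.78 (adjusted p 0.46). Cfb, Hpx and Serpina3h passed in neither direction against parental cells, but Hpx passed as lower without parental replicate 1 with a log2FC of -1.93 (adjusted p 0.024).

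In the IL-1 family the ligand Il33 and the receptor Il1r1 stood out. Of 20 tested genes (29 in the table), 8 were higher, 4 lower and 8 not called against parental cells, with a median log2FC of 0.20. Il33, a nuclear cytokine released on cell damage (ENSMUSG00000024810, chromosome 19, 29925114 to 29960718, plus strand), had 59.5 and 62.03 CPM in BMFA3-sorted, 3.30 and 2.02 CPM in CT1BA5-sorted and 5.61, 5.89 and 6.28 CPM in parental libraries. It was 10.2-fold higher than in parental and 22.3-fold higher than in CT1BA5-sorted cells. The classical ligands were not detected at a testable level, with Il1b at 0 counts in all 7 libraries and Il1a at no more than 0.194 CPM. Il1r1, the signalling receptor for IL-1 (ENSMUSG00000026072, chromosome 1, 40225080 to 40317257, plus strand), had 192 and 204 CPM in BMFA3-sorted, 25.8 and 17.2 CPM in CT1BA5-sorted and 65.6, 67.6 and 78.2 CPM in parental libraries. The groups did not overlap, and CT1BA5-sorted libraries were the lowest (log2FC of BMFA3-sorted cells 1.48 ± 0.099 over parental and 3.19 ± 0.13 over CT1BA5-sorted). Il1rl1, the receptor for IL-33, ran otherwise, with 56.5 and 56.3 CPM in BMFA3-sorted, 203 and 186 CPM in CT1BA5-sorted and 19.8, 24.4 and 26.2 CPM in parental libraries. BMFA3-sorted cells were 2.37-fold above parental but 3.45-fold below CT1BA5-sorted cells.

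Among the other receptors, Il1rl2, which binds IL-36, was 2.26-fold above parental and 2.25-fold above CT1BA5-sorted cells. Il1rap, the shared co-receptor, was 2.14-fold above parental cells and lower than in CT1BA5-sorted ones (log2FC -0.54 ± 0.092). The inhibitory members Irak3 and Sigirr were higher than in parental cells by 1.26 ± 0.23 and 1.53 ± 0.40 on the log2 scale, both at low levels. For Sigirr, the log2FC was 1.13 (adjusted p 0.096) without BMFA3 replicate 1. Irak2 rose 1.53-fold over parental cells. The cytokine Il18 was lower, at 7.37 and 9.21 CPM in BMFA3-sorted, 5.69 and 5.45 CPM in CT1BA5-sorted and 20.9, 26.6 and 25.4 CPM in parental libraries. Its decoy Il18bp followed (log2FC -1.66 ± 0.20), as did the inhibitory adaptor Tollip (-0.42 ± 0.069) and the inflammasome adaptor Pycard (-0.85 ± 0.26). The receptor chains Il18r1 and Il18rap did not pass (log2FC -1.37, adjusted p 0.16, and -0.14, adjusted p 0.07). Il18rap passed as lower without either CT1BA5-sorted library, with only the compared groups fitted or with library size alone. Il18r1, at a low level, passed as lower with limma-voom and without BMFA3 replicate 2, which leaves a BMFA3-sorted library with no counts of it. Without BMFA3 replicate 2 Pycard had a log2FC of -0.55 (adjusted p 0.15). Myd88, Irak1, Irak4 and Traf6, the core of the signalling chain, had log2 fold changes of -0.10, -0.14, 0.17 and 0.24 that did not pass against parental cells. Irak1 passed, with the same sign, when either CT1BA5-sorted library was left out (adjusted p 0.05 without replicate 1 and 0.049 without replicate 2).

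Most tested chemokine ligands were higher than in parental cells. Of 19 tested ligands (38 in the table), 12 were higher, 3 lower and 4 not called against parental cells, with a median log2FC of 1.239. Against CT1BA5-sorted cells 8 were higher and 7 lower. Cxcl1, Cxcl5 and Cxcl3, ligands of the neutrophil receptor CXCR2, and Cxcl15 were higher than in both other groups. Cxcl1 (ENSMUSG00000029380, chromosome 5, 90891241 to 90893115, plus strand) had 111 and 106 CPM in BMFA3-sorted, 4.92 and 6.07 CPM in CT1BA5-sorted and 2.21, 2.11 and 2.01 CPM in parental libraries. Cxcl5 had 10.7 and 9.81 CPM in BMFA3-sorted, 0 and 0.156 CPM in CT1BA5-sorted and 0.092, 0 and 0.0491 CPM in parental libraries. Both are among the genes chosen for lying above both other groups. They exceeded parental cells by 51.4-fold for Cxcl1 and with a ratio of 231 (95% exact interval 63.3 to 1913) for Cxcl5. Cxcl3 was low, at 1.28 and 0.928 CPM in BMFA3-sorted libraries and 0 counts in parental ones, and so at least 16.7-fold higher. Cxcl15 averaged 2.39 ± 0.187 CPM in BMFA3-sorted and 0.495 ± 0.0764 CPM in parental cells (SD), and CT1BA5-sorted libraries had none.

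Ccl2 and Ccl7, ligands of the monocyte receptor CCR2, were higher in both sorted groups. Ccl2 had 320.1 and 311 CPM in BMFA3-sorted, 132 and 149.6 CPM in CT1BA5-sorted and 58.2, 52.5 and 51.7 CPM in parental libraries. Ccl7 had 196 and 179.7 CPM in BMFA3-sorted, 110.5 and 126 CPM in CT1BA5-sorted and 18.2, 16.96 and 14.96 CPM in parental libraries. Both genes were highest in BMFA3-sorted cells, 5.84-fold and 11.4-fold above parental and 2.24-fold and 1.59-fold above CT1BA5-sorted cells. Ccl11, an eosinophil attractant, averaged 3.61 ± 0.619 CPM in BMFA3-sorted, 0.253 ± 0.083 CPM in CT1BA5-sorted and 0.11 ± 0.0974 CPM in parental cells. Cxcl16, a transmembrane chemokine, was 4.25-fold above parental but below CT1BA5-sorted cells (log2FC -0.91 ± 0.095). Cx3cl1, the other transmembrane chemokine, had 12.001 and 10.3 CPM in BMFA3-sorted, 60.5 and 65.02 CPM in CT1BA5-sorted and 10.2, 9.82 and 9.32 CPM in parental libraries. It did not pass against parental cells (log2FC 0.20 ± 0.13, adjusted p 0.18) and was lower than in CT1BA5-sorted cells (log2FC -2.49 ± 0.12). Ccl17, an attractant of regulatory and helper T cells through CCR4, was near 0 in BMFA3-sorted and parental libraries and at 3.75 and 6.15 CPM in CT1BA5-sorted ones. Its ratio between the sorted groups was 76.3 (95% exact interval 20.7 to 636), lower in BMFA3-sorted cells.

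Cxcl12, the homeostatic ligand of CXCR4, was lower, with 27.5 and 24.7 CPM in BMFA3-sorted, 36.7 and 35.4 CPM in CT1BA5-sorted and 51.9, 39.7 and 47.7 CPM in parental libraries (log2FC -0.83 ± 0.11). Cxcl13, a B cell attractant, had no count in either sorted group and 1.20, 1.237 and 1.32 CPM in parental libraries. Ccl5 and Ccl27a were higher than in parental cells by 1.67 ± 0.14 and 0.91 ± 0.18 on the log2 scale. The calls of Ccl9 (1.06), Ccl25 (-0.57) and Cxcl10 (0.21) were close to the threshold. Ccl9 was lost without BMFA3 replicate 1, BMFA3 replicate 2, parental replicate 2, parental replicate 3 or either CT1BA5 replicate, with log2FC 1.18, 0.93, 0.78, 1.17, 1.06 and 1.06. Ccl25 was lost without BMFA3 replicate 1 (-0.35) or any parental replicate (-0.57, -0.53 and -0.62). Cxcl10 was lost without either BMFA3 replicate (0.16 and 0.26) or without parental replicate 1 (0.15). Of 23 chemokine receptors with a row of counts, 5 were tested, and Ackr3, which scavenges CXCL12, had 35.6 and 39.3 CPM in BMFA3-sorted, 36.4 and 38.5 CPM in CT1BA5-sorted and 4.42, 6.70 and 6.28 CPM in parental libraries. It was 6.32-fold higher than in parental cells, and its libraries overlapped those of CT1BA5-sorted cells (log2FC -0.00 ± 0.12).

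**Figure D2:**
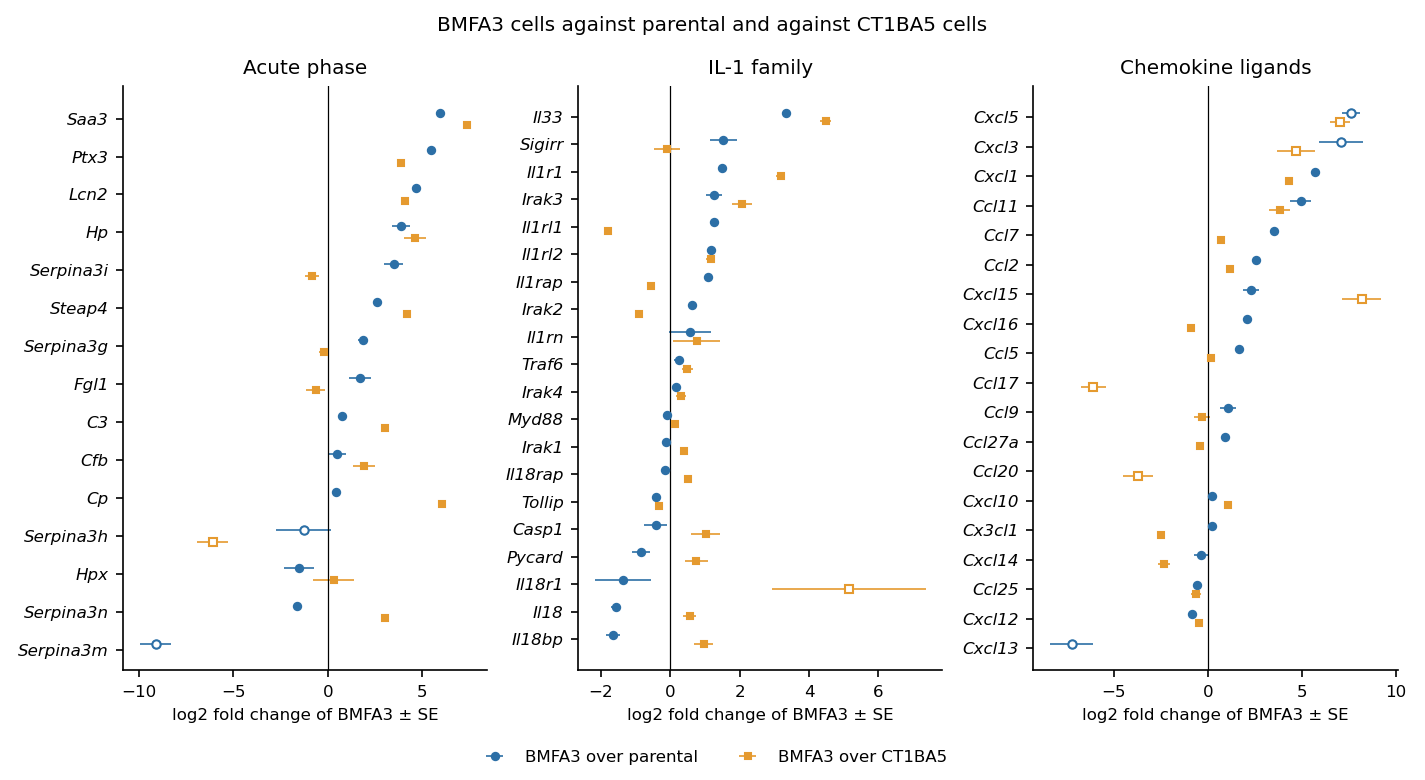
Log2 fold change with its standard error of each tested acute phase, IL-1 family and chemokine ligand gene, for BMFA3-sorted over parental cells (circles) and over CT1BA5-sorted cells (squares). Open symbols have 3 or fewer counts in a group, so their size depends on the fit, and points with so few counts in both groups are left out. Saa3, at 5.94 and 7.41, and Cxcl1, at 5.68 and 4.31, lie right of 0 in both comparisons, while Il1rl1 and Cxcl16 lie right of 0 over parental and left of 0 over CT1BA5-sorted cells.

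Several feedback genes of NF-kB were higher. Of 25 tested genes of that list, 10 were higher, 4 lower and 11 not called against parental cells. The median was 0.06, or -0.02 with library size alone. Nfkbiz, an atypical inhibitor that turns on secondary genes, had 210.1 and 205 CPM in BMFA3-sorted, 150.4 and 132 CPM in CT1BA5-sorted and 25.1, 26.1 and 29.6 CPM in parental libraries. Bcl3, a nuclear partner of NF-kB, had 113 and 108 CPM in BMFA3-sorted, 50.6 and 49.4 CPM in CT1BA5-sorted and 21.3, 20.3 and 21.6 CPM in parental libraries. Both were above the parental level in every sorted library and highest in BMFA3-sorted cells (log2FC 2.93 ± 0.082 and 2.39 ± 0.074 over parental). The inhibitor Nfkbia was 3.55-fold and the RNase Zc3h12a 5.83-fold higher than in parental cells. Rela, the main activating subunit and chosen after its values were seen, had a log2FC of 0.07 ± 0.069 (adjusted p 0.43).

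In the IL-6 family 14 of 19 tested genes were higher and 5 lower than in parental cells (median 1.04). Socs3, the feedback inhibitor of STAT3, had 209.9 and 212 CPM in BMFA3-sorted, 79.8 and 79.5 CPM in CT1BA5-sorted and 54.7, 56.3 and 54.8 CPM in parental libraries. The kinase Jak2 had 186 and 189 CPM in BMFA3-sorted, 100.5 and 102 CPM in CT1BA5-sorted and 57.8, 62.7 and 56.1 CPM in parental libraries. Both were highest in BMFA3-sorted cells, above parental by 3.82-fold and 3.18-fold and above CT1BA5-sorted cells by 2.65-fold and 1.85-fold. Pim1, a STAT3 target kinase, was 3.18-fold above parental cells. The ligand Il11, chosen after its values were seen, had 7.31 and 5.50 CPM in BMFA3-sorted, 97.4 and 99.3 CPM in CT1BA5-sorted and 0.644, 1.53 and 1.86 CPM in parental libraries, and so was lower in BMFA3-sorted than in CT1BA5-sorted cells (log2FC -3.93 ± 0.15).

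Prostaglandin genes were higher in 12 of 15 tested members and lower in 1 (median 0.99). Ptgs2, the inducible cyclooxygenase, had 2427 and 2507 CPM in BMFA3-sorted, 3925 and 3747 CPM in CT1BA5-sorted and 95.4, 98.4 and 104 CPM in parental libraries. It was 24.8-fold above parental and below CT1BA5-sorted cells (log2FC -0.64 ± 0.065). Slco2a1, which carries prostaglandins into cells, had 233 and 241 CPM in BMFA3-sorted, 40.7 and 36.4 CPM in CT1BA5-sorted and 70.3, 71.8 and 80.7 CPM in parental libraries. With the receptor Ptger3 it was thus above both other groups, whereas the synthase Ptges was higher than in parental cells (log2FC 1.31 ± 0.076) and did not pass against CT1BA5-sorted cells (0.10 ± 0.08).

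Complement genes were evenly divided, with 7 higher, 7 lower and 3 not called of 17, and a median of 0.03 that became -0.04 with library size alone. The first proteases of the classical pathway were on the higher side. C1s1 had 395 and 393 CPM in BMFA3-sorted, 171 and 169 CPM in CT1BA5-sorted and 91.2, 105 and 95.996 CPM in parental libraries. Its inhibitor Serping1 had 243 and 253 CPM in BMFA3-sorted, 105 and 105 CPM in CT1BA5-sorted and 110.0, 131 and 137 CPM in parental libraries. Both were highest in BMFA3-sorted cells without overlap. C2 was 1.99-fold lower than in parental cells. Among the oxidant defence genes, Sod2, the mitochondrial superoxide dismutase, had 203 and 198 CPM in BMFA3-sorted, 53.2 and 59.6 CPM in CT1BA5-sorted and 49.9, 51.9 and 51.2 CPM in parental libraries. The secreted Sod3 rose more, 27.3-fold over parental cells, but was lower than in CT1BA5-sorted cells (log2FC -0.83 ± 0.076).

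Mesothelial transcription factors and mesothelial surface genes differed in how they changed. Wt1 (ENSMUSG00000016458, chromosome 2, 105126529 to 105173616, plus strand) had 252 and 262 CPM in BMFA3-sorted, 122 and 114 CPM in CT1BA5-sorted and 231, 256 and 269 CPM in parental libraries. BMFA3-sorted and parental libraries overlapped, with a log2FC of 0.03 ± 0.072 (adjusted p 0.77), while BMFA3-sorted cells were 2.18-fold above CT1BA5-sorted cells (adjusted p 8.1e-10), whose libraries were the lowest. Bnc1, basonuclin 1, followed the same order, with 129 and 125 CPM in BMFA3-sorted, 67.9 and 61.1 CPM in CT1BA5-sorted and 118, 133 and 131 CPM in parental libraries. Osr1 had log2FC 0.25 ± 0.19 over parental and 2.28 ± 0.25 over CT1BA5-sorted cells. Factors above both other groups were Hand2, Meis1 and Nr2f2. Hand2 had 215 and 200.2 CPM in BMFA3-sorted, 83.3 and 93.4 CPM in CT1BA5-sorted and 79.2, 78.4 and 77.8 CPM in parental libraries, with reads shared by its overlapping partner Hand2os1. Meis1 and Nr2f2 were 3.51-fold and 2.51-fold above parental and 2.39-fold and 1.81-fold above CT1BA5-sorted cells. Gata6 lay between the groups, with 146 and 144 CPM in BMFA3-sorted, 59.5 and 58.7 CPM in CT1BA5-sorted and 261, 277 and 285 CPM in parental libraries. Klf4 did the same (log2FC -1.43 ± 0.069 over parental, 1.73 ± 0.083 over CT1BA5-sorted), while Tbx18 and Twist1 were lower than in parental cells (log2FC -1.25 ± 0.12 and -0.43 ± 0.072) and had log2 differences of 0.02 and 0.05 from CT1BA5-sorted cells.

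Over the whole list of factors, 11 of 25 were higher, 7 lower and 7 not called against parental cells, with a median of 0.25. Without BMFA3 replicate 2 the number higher was 6. The members that lost their call there were Foxf1, Irx5, Meis2, Sox9 and Tbx3, with log2FC 0.43, 0.50, 0.18, 0.45 and 0.59. Without BMFA3 replicate 1 the calls of Meis2 (0.20) and Sox9 (0.26) were lost, and both were also lost without parental replicate 1 (0.15 and 0.25) or parental replicate 2 (0.18 and 0.34). Bnc2, at an adjusted p of 0.05, lost its lower call without parental replicate 2 or 3 (-0.51 each) and without either BMFA3 replicate (-0.56 and -0.52). Against CT1BA5-sorted cells 10 factors were higher and 6 lower, with 3 lower without BMFA3 replicate 1, BMFA3 replicate 2 or CT1BA5 replicate 1.

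Surface, keratin and junction genes of the mesothelium were mostly lower. Of 34 tested genes, 27 were lower, 6 higher and 1 not called against parental cells, with a median log2FC of -1.87. Set against CT1BA5-sorted cells, 22 were higher, with a median of 1.31. Msln, mesothelin, had 631 and 617 CPM in BMFA3-sorted, 400.1 and 419 CPM in CT1BA5-sorted and 4920.2, 5098 and 5259 CPM in parental libraries. Upk3b, uroplakin 3B of the mesothelial surface, had 341 and 338 CPM in BMFA3-sorted, 20.96 and 19.8 CPM in CT1BA5-sorted and 2750.1, 3039 and 3150.1 CPM in parental libraries. Aldh1a1, a retinaldehyde dehydrogenase, had 139.7 and 152 CPM in BMFA3-sorted, 52.8 and 55.6 CPM in CT1BA5-sorted and 1763, 1703 and 1635 CPM in parental libraries. In all 3 the BMFA3-sorted libraries lay between the others, 8.16-fold, 8.78-fold and 11.7-fold below parental and 1.52-fold, 16.6-fold and 2.69-fold above CT1BA5-sorted cells. The 6 genes that rose were Aldh1a2, Slpi, Clu, Muc1, Pdpn and Cdh3, named after their values were seen. Slpi, a secreted antiprotease, had 40.9 and 39.4 CPM in BMFA3-sorted, 36.4 and 45.6 CPM in CT1BA5-sorted and 0.92, 1.60 and 1.57 CPM in parental libraries. Muc1, at a low level, had a log2FC of 1.66 that was 1.54 (adjusted p 0.083) without BMFA3 replicate 1, and the lower call of Cdh1 was lost without BMFA3 replicate 2 (-0.59 (adjusted p 0.091)). In these bulk libraries, fewer cells with a gene and less RNA of it per cell cannot be told apart.

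**Figure D3:**
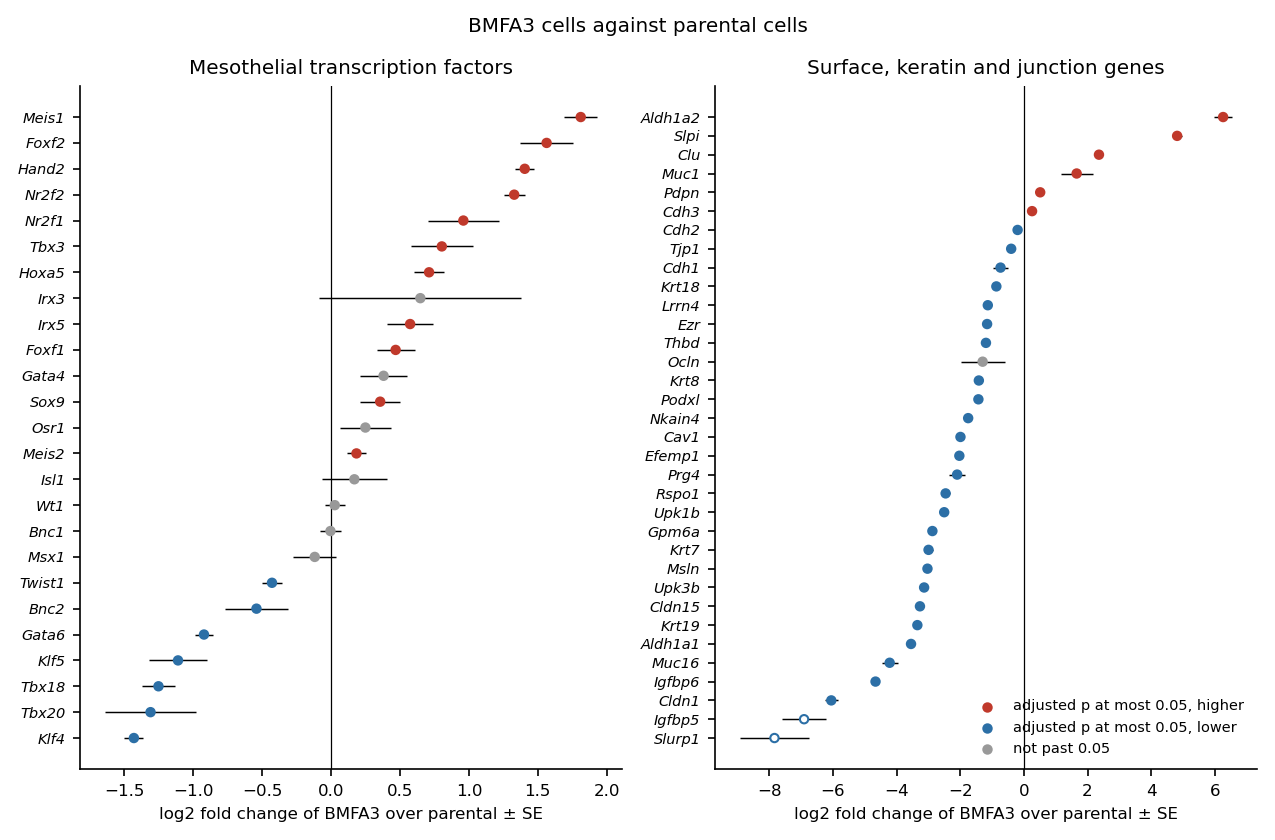
Log2 fold change of BMFA3-sorted over parental cells with its standard error for each tested mesothelial transcription factor (left) and surface, keratin or junction gene (right), coloured by call. Open symbols have 3 or fewer counts in a group. The factors spread on both sides of 0 with Wt1 at 0.03, and 27 of the 34 surface genes lie left of 0 with a lower call.

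The lists of growth and metabolism gave the most one-sided counts. All 31 cell cycle and DNA replication genes were lower than in parental cells (median -1.67), and 18 of them were higher than in CT1BA5-sorted cells. Mcm5, part of the replicative helicase, had 15.5 and 17.8 CPM in BMFA3-sorted, 9.51 and 10.8 CPM in CT1BA5-sorted and 92.1, 91.6 and 90.4 CPM in parental libraries. Rrm2, of ribonucleotide reductase, had 39.2 and 35.5 CPM in BMFA3-sorted, 50.3 and 48.4 CPM in CT1BA5-sorted and 163, 157 and 167 CPM in parental libraries. No sorted library reached the parental range. Cholesterol synthesis genes were lower in 20 of 23 and higher in none (median -0.83), with Idi1 at 13.2 and 12.6 CPM in BMFA3-sorted, 6.15 and 4.75 CPM in CT1BA5-sorted and 48.96, 66.6 and 61.1 CPM in parental libraries. Glycolysis and hypoxia genes were higher in 22 of 24 and lower in none (median 1.20). Slc16a3, the lactate exporter, had 381 and 362 CPM in BMFA3-sorted, 489 and 508 CPM in CT1BA5-sorted and 35.3, 22.4 and 31.5 CPM in parental libraries. Vegfa, the vascular growth factor, was 5.33-fold above parental but below CT1BA5-sorted cells (log2FC -1.19 ± 0.092).

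Interferon response genes were lower in 23 of 30 and higher in 3 (median -0.59). Ifit3 had 37.95 and 42.3 CPM in BMFA3-sorted, 29.2 and 26.7 CPM in CT1BA5-sorted and 202, 186 and 186 CPM in parental libraries. Targets of ATF4 and the aminoacyl-tRNA synthetases were lower in 19 of 39 and higher in 10 (median -0.07), and serine, polyamine and one-carbon genes were lower in 13 of 22 and higher in 5 (median -0.21). The last list had 3 higher without BMFA3 replicate 1, and 8 lower with the replicate block or at an adjusted p of 0.01. Chac1, which degrades glutathione in the stress response, was 5.37-fold lower, and Ass1, which remakes arginine for nitric oxide synthesis, 2.10-fold higher. Myofibroblast and matrix genes were higher in 17 of 23 against parental cells (median 1.21) and lower in 21 of 23 against CT1BA5-sorted cells (median -1.07). Acta2, smooth muscle actin, had 515 and 533 CPM in BMFA3-sorted, 1634 and 1792 CPM in CT1BA5-sorted and 158, 154 and 151 CPM in parental libraries. Tnc, tenascin C, had 105 and 108 CPM in BMFA3-sorted, 1488 and 1248 CPM in CT1BA5-sorted and 26.4, 25.8 and 28.8 CPM in parental libraries. BMFA3-sorted libraries thus lay between the other groups in both. Of 6 tested genes of MHC class II presentation, 3 were higher and 2 lower, with H2-Ab1 6.90-fold higher and H2-Eb1 3.67-fold lower.

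**Figure D4:**
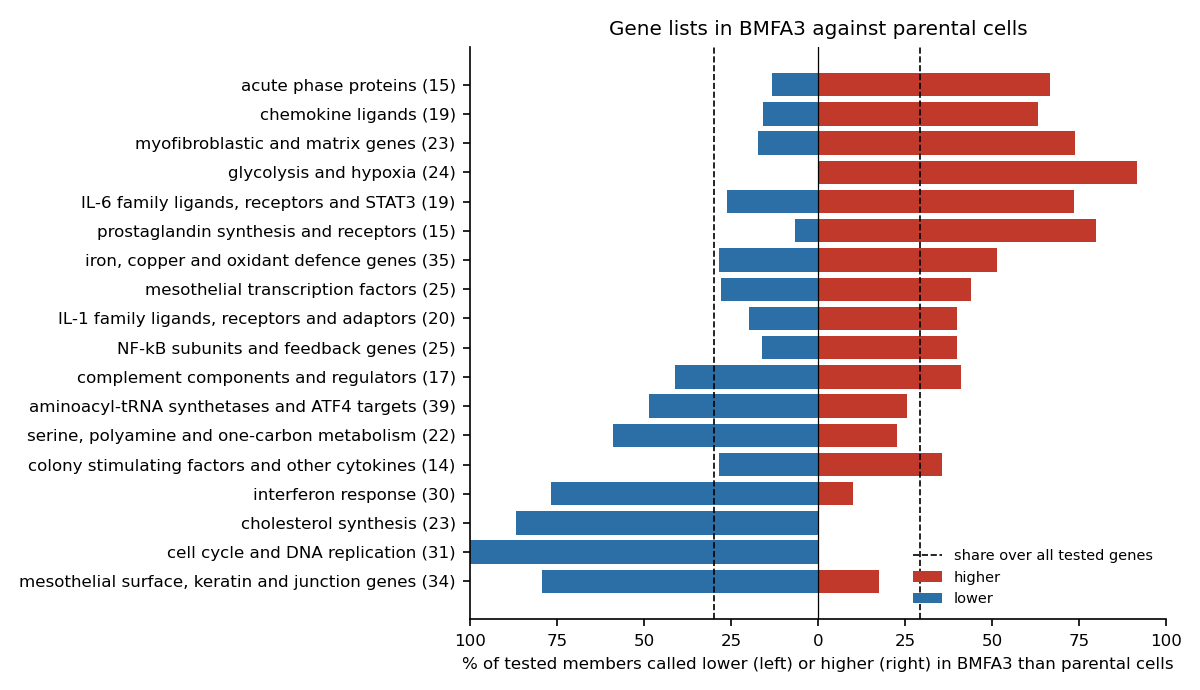
Share of tested members called lower (left) or higher (right) in BMFA3-sorted than in parental cells for each gene list, with the number tested in parentheses and dashed lines at the shares over all tested genes (29.9% lower, 29.2% higher). Cell cycle genes reach the left end with 31 of 31 lower, and glycolysis and hypoxia genes lie furthest right with 22 of 24 higher.

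Of 72 gene families, 65 had at least 8 tested members, and they were ranked by median log2FC over parental cells. The highest medians were those of fibroblast growth factors and receptors (1.42), cadherins and protocadherins (0.89), Hox genes (0.80), mitochondrially encoded genes (0.73), cytosolic ribosomal proteins (0.70), bone morphogenetic proteins with growth differentiation factors (0.68), glutathione S-transferases (0.67) and matrix metalloproteinases with TIMPs (0.57). These kept their sign with RLE scaling and with library size alone, and all but the mitochondrially encoded genes, which are then absent, with ribosomal RNA-linked and mitochondrial genes left out. Fibroblast growth factor genes were higher in 8 of 12 and lower in 3. Fgf7, a stromal factor that acts on epithelium, had 75.4 and 80.5 CPM in BMFA3-sorted, 28.5 and 26.1 CPM in CT1BA5-sorted and 9.29, 6.48 and 9.37 CPM in parental libraries. Gdf6, a bone morphogenetic ligand, had 207 and 205 CPM in BMFA3-sorted, 58.4 and 57.8 CPM in CT1BA5-sorted and 20.2, 18.6 and 23.4 CPM in parental libraries. Both were highest in BMFA3-sorted cells, 9.24-fold and 9.83-fold above parental cells. The family of Gdf6, with that gene counted, was mixed, with 5 of 10 higher and 4 lower, or 2 lower without parental replicate 2.

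Hox genes, which keep positional identity, were higher in 25 of 31 and lower in 1, the single lower call being lost without BMFA3 replicate 1. Hoxb8 had 9.63 and 9.15 CPM in BMFA3-sorted, 17.5 and 16.1 CPM in CT1BA5-sorted and 1.66, 1.38 and 2.75 CPM in parental libraries. Hoxb9 rose 2.68-fold over parental cells. Neighbouring Hox genes overlap in the annotation, and the part of shared reads was not tested. Cytosolic ribosomal protein genes were higher in 76 of 80 and lower in none against parental cells, and lower in 77 and higher in none against CT1BA5-sorted cells. Rpl26 had 841 and 821 CPM in BMFA3-sorted, 1081 and 1269 CPM in CT1BA5-sorted and 422, 386 and 361 CPM in parental libraries. Of the mitochondrially encoded genes 10 of 13 were higher and none lower, with mt-Co1 2.44-fold above parental cells. Cadherins and protocadherins were higher in 22 of 41 and lower in 12, or in 7 without BMFA3 replicate 1 and 6 without BMFA3 replicate 2. Their clustered members share exons and are uncertain. Pcdh10 fell to 7.86 and 5.77 CPM in BMFA3-sorted and 1.88 and 1.64 CPM in CT1BA5-sorted libraries, against 62.8, 82.5 and 84.8 CPM in parental libraries. Timp1, a secreted inhibitor of metalloproteinases, rose 19.2-fold and Mmp2, gelatinase A, 4.32-fold, in a family with 9 of 16 higher and 7 lower. Glutathione S-transferases were higher in 10 and lower in 7 of 19, with Gsto1 1.90-fold higher and Gstm1 2.46-fold lower.

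The lowest medians were those of keratins (-1.41), S100 proteins (-1.40), laminins (-0.84), kinesins (-0.77), histone genes (-0.71), collagens (-0.48), annexins (-0.37) and cathepsins (-0.35). Keratins were lower in 7 of 11 and higher in 2, or 1 without either BMFA3 replicate or without parental replicate 2 or 3. Krt19, a simple keratin, had 96.1 and 98.3 CPM in BMFA3-sorted, 28.3 and 33.4 CPM in CT1BA5-sorted and 933, 1014 and 1019.5 CPM in parental libraries. S100 genes, which encode small calcium-binding proteins, were lower in 10 of 12 and higher in 2, or 1 without BMFA3 replicate 1, parental replicate 1 or parental replicate 3. S100a6 had 1071 and 1014 CPM in BMFA3-sorted, 757 and 936 CPM in CT1BA5-sorted and 3249, 3252 and 3245 CPM in parental libraries. Every sorted library lay below the parental ones for both genes. Annexins, which bind membranes in the presence of calcium, were lower in 5 of 10 and higher in 2. Anxa1 was 2.86-fold and Anxa3 4.42-fold lower than in parental cells.

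Laminins, of the basement membrane, were lower in 6 of 9 and higher in 2. Lamb2 had 77.9 and 81.9 CPM in BMFA3-sorted, 56.7 and 46.2 CPM in CT1BA5-sorted and 342, 358 and 403 CPM in parental libraries. Collagens were lower in 16 of 30 and higher in 8, with Col1a2, of the fibrillar type I collagen, 3.51-fold higher and Col8a1 7.43-fold lower. Kinesins were lower in 20 of 37 and higher in 7, the number higher being 3 without BMFA3 replicate 1 and 4 without BMFA3 replicate 2 or parental replicate 3. Kif26b rose against most of its family, with 72.005 and 68.1 CPM in BMFA3-sorted, 94.6 and 80.3 CPM in CT1BA5-sorted and 2.58, 3.78 and 5.15 CPM in parental libraries. So did Kif21b, with a ratio of 166 (95% exact interval 56.4 to 810) over parental cells. Histone genes were lower in 12 of 28 and higher in 4, and cathepsins, lysosomal proteases, lower in 5 of 11 and higher in 3, with Ctsd 1.61-fold lower. The medians of the other 49 ranked families lay between -0.341 and 0.521.

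**Figure D5:**
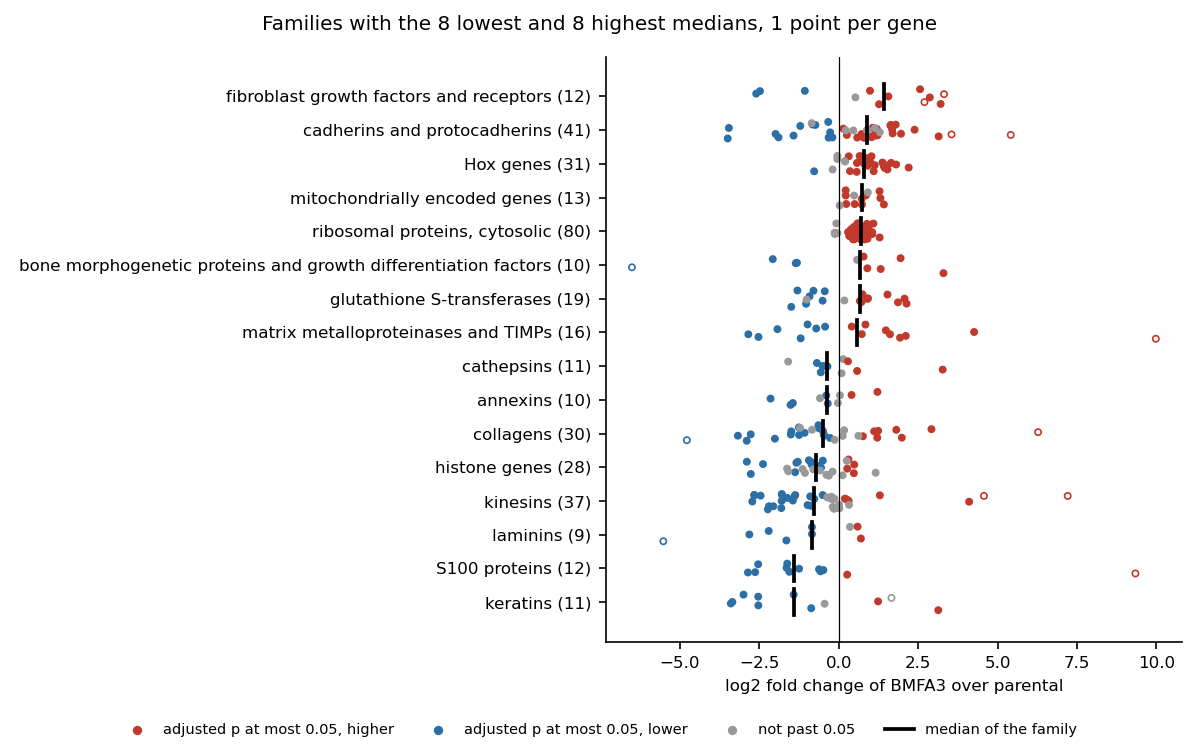
Log2 fold change of BMFA3-sorted over parental cells for each tested member of the 8 families with the highest and the 8 with the lowest medians, 1 point per gene, with the family median as a bar and the number tested in parentheses. Open points have 3 or fewer counts in a group. The ribosomal proteins form a tight group around 0.70, while fibroblast growth factors, with the median of 1.42, spread on both sides of 0.

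Summed levels of markers of other cells differed between groups, and their part in these results was not tested. Of 15 macrophage markers 5 were tested and 5 had no count in any library. Their summed level was 39.4 to 42.03 CPM in BMFA3-sorted, 39.6 to 40.1 CPM in CT1BA5-sorted and 24.4 to 31.9 CPM in parental libraries, with Ptprc, C1qa and Tyrobp at 0 throughout. Of the 5 tested macrophage markers, 2 were higher in BMFA3-sorted than in parental cells and none lower, and 1 passed as over 2-fold higher. Of 11 neutrophil markers 4 had no count, Itgam and Csf3r among them, and the sum was 5.63 to 7.07 CPM in BMFA3-sorted, 1.49 to 2.34 CPM in CT1BA5-sorted and 0.092 to 0.245 CPM in parental libraries. That sum was mostly S100a8, which neutrophils carry in abundance together with S100a9, and S100a9 was at 0 in every library. For tumour epithelium (6 of 16 tested) the sums were 16.2 to 19.8 CPM in BMFA3-sorted, 20.3 to 25.9 CPM in CT1BA5-sorted and 61.8 to 78.3 CPM in parental libraries, and Epcam had 5 counts at most. Despite the lower sum, 2 of the 6 tested markers were higher and 2 lower in BMFA3-sorted than in parental cells (median log2FC 0.25). With the replicate block 0 were higher. For endothelium (3 of 10 tested) the sums were 70.1 to 72.2 CPM in BMFA3-sorted, 53.4 to 56.5 CPM in CT1BA5-sorted and 168 to 184 CPM in parental libraries. Of these 3 markers, 1 was higher and 2 lower in BMFA3-sorted than in parental cells. Sums of 13 lymphocyte and dendritic cell markers were 11.9 to 13.6 CPM in BMFA3-sorted, 9.25 to 9.73 CPM in CT1BA5-sorted and 18.9 to 21.5 CPM in parental libraries, with Cd3e at 0. Pericyte and stellate cell markers summed to 174 to 178 CPM in BMFA3-sorted, 267 to 302 CPM in CT1BA5-sorted and 109 to 119 CPM in parental libraries, and the pericyte gene Rgs5 was at most 1.71 CPM. Of 6 tested pericyte and stellate markers, 3 were over 2-fold higher than in parental cells (Rgs5, Des and Pdgfrb, with log2FC 3.24, 1.38 and 2.01) and Mcam was lower (-1.11). Adipocyte markers summed to 86.99 to 88.7 CPM in BMFA3-sorted, 15.96 to 16.4 CPM in CT1BA5-sorted and 128 to 134 CPM in parental libraries, with Adipoq and Plin1 at 0. Acinar and islet markers reached 2.85 to 4.20 CPM in BMFA3-sorted, 3.49 to 5.76 CPM in CT1BA5-sorted and 1.02 to 1.20 CPM in parental libraries, and erythroid markers 0 to 0.366 CPM in BMFA3-sorted, 0.311 to 0.323 CPM in CT1BA5-sorted and 0.946 to 1.38 CPM in parental libraries, with no globin counts.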

How the data were processed

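RNA from 7 PanMeso samples was sequenced after extraction with a column kit and standard Illumina library preparation, per the labels' protocols. The authors deposited raw counts per Ensembl gene, 1 column per sample. CASAVA, DESeq2 1.24.0 and mm10 are named per the submitters' processing notes. Aligner, counter, annotation and strand setting were not given in the sources used here. Symbols and coordinates came from GENCODE mouse release M21 (GRCm38).

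Of 54532 genes, 31634 had no counts and 13784 passed filterByExpr (minimum count 10), with 99.9% of counts. Counts of 3 groups were fitted together in edgeR 4.0.16 (R 4.3.3) with TMM scaling and tested by quasi-likelihood F tests, Benjamini-Hochberg adjusted at 0.05 over all tested genes, and by glmTreat for 2-fold. The biological coefficient of variation common to all genes was 0.0830. The script was tested on simulated data. Where a group had 0 counts, the fold was taken against 3 counts in the whole group, and 1 to 3 counts gave a ratio with a 95% exact interval.

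Members, gene lists and families were chosen with earlier results of these data known. Named genes were all tested acute phase, IL-1, chemokine ligand and mesothelial factor genes, the 12 highest and 12 lowest against parental cells, the 12 above and 12 below both groups, 8 and 8 that moved opposite ways in the sorted groups (at least 10 CPM in the higher group, no overlap), and the 4 members per other list and 2 per family with the smallest p. A few genes that meet these rules are not reported here. Some other list members were named after their values were seen, among them Il11, Il1a and Il1b. Another gene above 1 CPM overlaps 43 of the 337 named genes, such as Timp1 (Syn1), Fgf2 (Nudt6), Gata6 (1010001N08Rik), Hip1r (Vps37b), Hoxa5 (Hoxa3), Cxcl16 (Zmynd15), Il18bp (Numa1) and C2 (Zbtb12).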

Additional observations from a re-analysis of the deposited data

Results flagged for a closer look

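For 16 named genes, BMFA3-sorted cells moved one way from the parental level and CT1BA5-sorted cells the other, with no overlap of groups. The genes were chosen by that pattern, so a difference between the sorted groups was all but fixed in advance. It passed edgeR's quasi-likelihood test in each (adjusted p from 9.7e-18 for Steap4 to 1.1e-07 for Prl2c2). The pattern was counted only among tested genes of at least 10 CPM in the highest group whose symbol is not that of a predicted gene. There, 203 genes had it with BMFA3-sorted cells the higher and 196 with BMFA3-sorted cells the lower. The 16 led a ranking by the smaller of the 2 changes from the parental level, among genes of at least 10 CPM in the higher group. In 8 of them BMFA3-sorted cells were higher. The log2 fold changes of BMFA3-sorted over CT1BA5-sorted cells were 7.41 for Saa3, 7.05 for Chl1, 6.66 for Ptger3, 4.49 for Gdpd2, 4.19 for Steap4, 3.65 for Spon2, 3.19 for Il1r1 and 2.90 for Prl2c2. Spon2, a secreted protein of the spondin family, had 21.4 and 17.8 CPM in BMFA3-sorted, 1.23 and 1.95 CPM in CT1BA5-sorted and 4.14, 6.40 and 5.89 CPM in parental libraries. Reads of Prl2c2 cannot be told from those of its near-identical copies.

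In the other 8, BMFA3-sorted cells were lower. Their log2 fold changes over CT1BA5-sorted cells were -3.47 for Col8a2, -3.47 for B3gnt8, -3.27 for Hr, -3.16 for Dapk2, -2.37 for Scx, -2.15 for Tmcc3, -1.96 for Gadd45b and -1.93 for Cgref1. Gadd45b, a stress and TGF-beta response gene, had 25.2 and 20.8 CPM in BMFA3-sorted, 86.9 and 92.4 CPM in CT1BA5-sorted and 50.1, 43.2 and 51.2 CPM in parental libraries. Scx, scleraxis, a transcription factor of tendon, had 3.17 and 1.86 CPM in BMFA3-sorted, 12.6 and 13.6 CPM in CT1BA5-sorted and 6.44, 6.19 and 5.94 CPM in parental libraries, and it overlaps Bop1. B3gnt8 overlaps Bckdha. The genes were chosen by this pattern, so their number, their direction and the p-values between the sorted groups carry no further weight.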

How the results depend on the processing

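The alternatives were RLE scaling, library size alone, other filters, an adjusted p of 0.01, DESeq2 and limma-voom. They also included a fit of the compared groups only, a replicate block, removal of ribosomal RNA-linked and mitochondrial genes, and leaving out each library. Under none of them did a named gene with a call reverse its direction or a count of all genes move by more than 1.5 times. Changes of sign in named genes without a call were not counted. Against parental cells, the 4020 higher and 4115 lower genes became 3330 to 4277 and 3345 to 4347 when a library was left out, and 3315 to 4180 and 3382 to 4672 under the other alternatives. Changes over 2-fold (785 higher, 921 lower) became 687 to 814 and 731 to 948, and 657 to 825 and 737 to 1010, and were not computed with DESeq2 or limma-voom. Against CT1BA5-sorted cells, the 3487 higher and 3521 lower genes became 2803 to 3524 and 2724 to 3513, and 2653 to 4740 and 2371 to 3546. The extremes of 4740 and 2371 came with library size alone, where 66.7% of calls were higher, against 49.8% with TMM scaling.

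Replicate numbers showed no clear pairing of the libraries (same-number correlations -0.094 and -0.0472 between BMFA3-sorted and parental, 0.0769 between the sorted groups). With so few libraries per group, these correlations cannot exclude a pairing. With the replicate block, 3472 genes were higher and 3572 lower than in parental cells, and 3242 higher and 3236 lower than in CT1BA5-sorted cells. Leaving out a BMFA3-sorted library leaves a single one, which is assumed to vary like the other groups, and 22 (without replicate 1) or 26 (without replicate 2) calls of named genes were then lost.

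Groups of 2 and 3 libraries limit precision, and levels under about 1 CPM rest on few counts. Intervals and floors cover counting error only.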
